A study of Mus musculus with 20 samples.

Results

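Mitochondrial ribosomal protein genes were followed in Mcl1(L-/-) and WT mouse livers, in fasted and in fed animals. The genes were taken by symbol, as every probe set whose platform gene symbol starts with Mrpl or Mrps and a digit, with 1 probe set per symbol. This gave 76 genes out of 19505 symbols on the array, each with a single probe set. Of these, 48 carry an Mrpl symbol (large subunit) and 28 an Mrps symbol (small subunit). RefSeq lists 78 protein-coding genes that fit the rule, and Mrpl53 and Mrps6 were not analysed here. RefSeq also lists 6 mouse pseudogenes of Mrpl or Mrps genes, and which exons each probe set reads is not stated in the annotation used.

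Liver RNA of 20 mice was hybridised to 1 array per mouse, with 5 mice labelled as biological replicates in each of 4 groups. The groups were fasted Mcl1(L-/-), fed Mcl1(L-/-), fasted WT and fed WT. Fasted mice spent 48 h without food, housed singly in wire-bottom cages, while fed mice ate freely, and all mice had water. The labels describe Mcl1(F/F) mice given AAV-LP1-Cre, an adeno-associated virus in which the liver-directed LP1 promoter drives Cre recombinase. MCL-1, the protein of Mcl1, belongs to the BCL2 family, guards cells against apoptosis and also resides in mitochondria. The same protocol text stands on the WT samples, so what the WT mice received is not clear, and the effects of the virus, of Cre and of reduced Mcl1 cannot be told apart. The labels used here give no age, sex or background strain of the mice.

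Mitochondria carry their own ribosomes, which translate the few proteins encoded by mitochondrial DNA, all of them subunits of the respiratory chain and ATP synthase. The ribosomal RNAs come from mitochondrial DNA, whereas every ribosomal protein is encoded in the nucleus, made in the cytosol and imported. Some of these proteins descend from bacterial ribosomal proteins and others are found only in mitochondria. Hepatocytes, the main cells of the liver, are rich in mitochondria, and fasting raises their demand for fatty acid oxidation and for energy for gluconeogenesis. By the list used here, 45 of the 76 genes encode proteins with a bacterial homologue and 31 encode proteins specific to mitochondria. Of the S18 family, the list counts Mrps18c among the former, and Mrps18a and Mrps18b among the latter. The genes lay on 17 chromosomes, with 11 on chromosome 11 and 8 on chromosome 17.

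Promoter stretches are shown for 6 genes around which the results turn, namely 3 with large called rises in fasted Mcl1(L-/-) livers (Mrps18b, Mrpl17 and Mrpl47), the gene that fell there (Mrpl49), and the genes with the largest called rise and fall in fasted WT livers (Mrpl34 and Mrps18a). Each stretch holds the 150 bases before the transcription start, read 5′ to 3′ on the gene's strand, from RefSeq sequence of build GRCm38.p6. Their positions were chr17:35916441-35916590 (minus strand) for Mrps18b, chr7:105811088-105811237 (minus strand) for Mrpl17, chr3:32736756-32736905 (minus strand) for Mrpl47, chr19:6057756-6057905 (minus strand) for Mrpl49, chr8:71464776-71464925 (plus strand) for Mrpl34 and chr17:46110854-46111003 (plus strand) for Mrps18a. Capitals mark a match to the NRF1 motif in Mrpl17 and to the ETS motif in Mrpl34 and Mrps18a.
Mrps18b: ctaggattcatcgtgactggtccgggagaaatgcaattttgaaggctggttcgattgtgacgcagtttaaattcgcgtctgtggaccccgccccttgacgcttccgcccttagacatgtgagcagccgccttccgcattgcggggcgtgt
Mrpl17: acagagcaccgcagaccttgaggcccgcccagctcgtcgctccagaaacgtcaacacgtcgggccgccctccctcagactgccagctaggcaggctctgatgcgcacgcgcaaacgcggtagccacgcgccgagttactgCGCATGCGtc
Mrpl47: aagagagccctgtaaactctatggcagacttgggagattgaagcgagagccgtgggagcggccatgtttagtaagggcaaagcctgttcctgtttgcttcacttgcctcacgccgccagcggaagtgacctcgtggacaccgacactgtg
Mrpl49: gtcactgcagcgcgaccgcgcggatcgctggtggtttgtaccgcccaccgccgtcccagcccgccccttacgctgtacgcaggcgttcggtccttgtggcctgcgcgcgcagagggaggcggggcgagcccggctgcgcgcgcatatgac
Mrpl34: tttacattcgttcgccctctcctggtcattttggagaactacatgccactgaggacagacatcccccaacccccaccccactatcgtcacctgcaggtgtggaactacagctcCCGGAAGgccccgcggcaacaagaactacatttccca
Mrps18a: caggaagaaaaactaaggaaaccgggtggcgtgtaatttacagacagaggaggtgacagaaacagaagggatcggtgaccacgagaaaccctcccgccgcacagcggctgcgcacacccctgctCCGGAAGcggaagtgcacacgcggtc

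Motifs were searched in windows of 250 bases before to 50 bases after the start, on both strands, for the 67 of 76 genes with a RefSeq window. The ETS motif CCGGAAG, bound by GABP among others, was found in 25 of 67 (37.3%), compared with 9.93% of all 27025 genes with a window and 13.2% of the 15691 of them on the array. The NRF1 motif CGCATGCG, bound by nuclear respiratory factor 1, was found in 7 (10.4%), compared with 2.07% of all genes and 2.87% of those on the array. The YY1 motif AAGATGGC was found in 12 (17.9%), compared with 3.19% and 3.64%. The ERR motif CAAGGTCA was found in 2 (2.99%), compared with 1.76% of all genes, and the E-box CACGTG in 5 (7.46%), compared with 8.09%. ETS and YY1 matches overlapped in 0 genes. Of the genes that rose in fasted Mcl1(L-/-) livers, 12 have a window. Among these the ETS motif stood in 5 (41.7%), the NRF1 motif in 2 (16.7%) and the YY1 motif in 0. Among the other 55 genes, which hold all 12 with a YY1 match, the shares were 36.4%, 9.09% and 21.8%. With only 12 risen genes, these shares are imprecise. Outside the stretches shown, the full windows also held an NRF1 and an ETS match in Mrps18b, an ETS match in Mrpl17, and YY1 matches after the start of Mrpl49 and Mrps18a. These matches describe letters and were not tested as binding sites.

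Mcl1 itself had 39.5% of the WT level in fed Mcl1(L-/-) livers (log2 difference -1.34, SE 0.12, limma adjusted p = 5.07e-07) and 45.4% in fasted Mcl1(L-/-) livers (-1.14, adjusted p = 4.47e-06). All signals are log2 values. The hepatocyte genes Alb and Apoa1 were bright on every array (12.38 to 12.56 and 12.20 to 12.53), and the T cell gene Cd3e was dim (2.09 to 2.70). Array medians lay between 3.35 and 3.47, and arrays of a group correlated at r = 0.979 to 0.990 over all probe sets. All 76 genes lay at or above the median mean signal of the 22206 probe sets, among the 11103 referred to as the brighter probe sets, with means of 4.01 to 8.12 over the 20 arrays. In whole liver RNA, fewer cells of a type and less RNA per cell cannot be told apart.

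The first comparison asks how 48 h without food changed these genes in Mcl1(L-/-) livers. In fasted Mcl1(L-/-) livers, 15 of the 76 genes rose and 1 fell, by limma's test at an adjusted p under 0.05 over all probe sets. The largest rises were those of Mrps18b (1.85-fold), Mrpl15 (1.83-fold), Mrpl17 (1.82-fold) and Mrpl47 (1.73-fold), and the gene that fell was Mrpl49 (1.73-fold lower). No gene changed 2-fold or more in any of the 4 pairwise comparisons. The 15 that rose were 19.7% of the genes, compared with 8.20% of all probe sets and 15.4% of the brighter probe sets. The 1 that fell was 1.32%, compared with 6.25% of all probe sets and 11.2% of the brighter probe sets. The median log2 difference was 0.09, with 51 of 76 (67.1%) above 0, and the median over all probe sets was -0.002, with 49.6% above 0. For 13 genes (17.1%) all 5 fasted arrays lay above all 5 fed ones, compared with 5.88% of all probe sets. For this measure the share over the brighter probe sets, to which all 76 genes belong, was not computed.

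Mrps18b encodes a small-subunit protein of the S18 family. Its signals were 7.09, 7.54, 7.09, 7.58 and 7.60 in fasted Mcl1(L-/-) livers, against 6.16, 6.53, 6.59, 6.80 and 6.36 in fed Mcl1(L-/-) livers. The groups did not overlap, and the difference was 0.89 (SE 0.14, limma adjusted p = 5.92e-05). In fasted WT livers it had 6.85, 6.84, 6.94, 6.45 and 6.47, against 6.75, 6.53, 6.68, 6.70 and 6.44 in fed WT livers, and these groups overlapped (difference 0.09, SE 0.14).

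Mrpl15 encodes the mitochondrial counterpart of bacterial L15, a protein of the large subunit. Its signals were 6.39, 5.93, 6.25, 6.20 and 6.18 in fasted Mcl1(L-/-) livers, against 4.90, 5.61, 5.03, 5.68 and 5.35 in fed Mcl1(L-/-) livers. All 5 fasted arrays lay above the fed ones (difference 0.88, SE 0.18, limma adjusted p = 0.00126). The WT groups overlapped, with 5.81, 6.04, 5.75, 5.23 and 5.62 in fasted WT livers and 5.25, 5.0, 5.76, 5.92 and 5.79 in fed WT livers.

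Mrpl17, the counterpart of bacterial L17 near the exit of the peptide tunnel, was higher after fasting in both genotypes. Its signals were 8.08, 8.48, 8.01, 8.28 and 8.62 in fasted Mcl1(L-/-) livers, against 7.48, 7.45, 7.35, 7.37 and 7.48 in fed Mcl1(L-/-) livers (difference 0.87, SE 0.11, limma adjusted p = 4.61e-06). In fasted WT livers they were 7.67, 7.75, 7.96, 7.79 and 7.70, against 7.27, 7.16, 7.24, 7.49 and 7.32 in fed WT livers (difference 0.48, SE 0.11, limma adjusted p = 0.00673). In both genotypes every fasted array lay above every fed one. The fed Mcl1(L-/-) arrays were the tightest, with an SD of 0.063 over 5 mice, against 0.257 in the fasted ones.

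Mrpl47 encodes the counterpart of bacterial L29, also at the tunnel exit. Its signals were 4.92, 4.58, 4.63, 5.17 and 5.03 in fasted Mcl1(L-/-) livers, against 4.02, 4.14, 3.91, 4.16 and 4.17 in fed Mcl1(L-/-) livers. The groups did not overlap (difference 0.79, SE 0.18, limma adjusted p = 0.00352). In fasted WT livers the 5 arrays had 4.07, 4.30, 4.33, 4.42 and 4.90 in ascending order, while in fed WT livers replicate 3 stood at 5.01 and the others between 3.85 and 4.12, so the WT groups overlapped.

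Mrpl49, a large-subunit protein specific to mitochondria, went the other way. Its signals were 5.01, 5.26, 5.91, 5.85 and 5.03 in fasted Mcl1(L-/-) livers, against 5.97, 6.16, 6.37, 6.22 and 6.32 in fed Mcl1(L-/-) livers. All fasted arrays lay below the fed ones, with replicates 3 and 4 close to the fed range and the other 3 at 5.01 to 5.26 (difference -0.79, SE 0.15, limma adjusted p = 0.000437). In fasted WT livers it had 6.08, 6.28, 6.03, 5.96 and 6.10, against 6.11, 6.09, 6.25, 6.20 and 6.08 in fed WT livers, which overlap. Its SD of 0.438 in fasted Mcl1(L-/-) livers exceeded the 0.077 to 0.160 of the other groups, which the shared SE does not reflect. Without fasted Mcl1(L-/-) replicates 3 and 4 the difference was -1.11. As these arrays were the closest to the fed range, a larger difference was bound to follow from leaving them out.

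The other genes that rose in fasted Mcl1(L-/-) livers did so by 0.33 to 0.55 on the log2 scale. From the large subunit these were Mrpl13 (0.55), Mrpl12 (0.53), Mrpl20 (0.53), Mrpl55 (0.50) and Mrpl57 (0.42). Mrpl12 forms the flexible stalk to which translation factors bind, Mrpl13 and Mrpl20 are counterparts of bacterial L13 and L20, and Mrpl57 has no bacterial counterpart. From the genes with Mrps symbols these were Mrps33 (0.55), Mrps2 (0.53), Mrps23 (0.50), Mrps31 (0.50), Mrps30 (0.46) and Mrps34 (0.33). Mrps2 is the counterpart of bacterial S2, and the other 5 are specific to mitochondria. Mrps30, despite its symbol, encodes a protein found in the large subunit in structures of the mammalian mitochondrial ribosome, and so does Mrps18a. Fasted and fed groups overlapped for Mrpl20, Mrps23, Mrps30 and Mrps34. Mrpl20 lost its call without fasted Mcl1(L-/-) replicate 4 or 5 (difference 0.46 to 0.64 over all arrays left out in turn, highest adjusted p = 0.0616).

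The rises were spread over both subunits and both origins. Of the genes with Mrpl symbols 8 of 48 (16.7%) rose and 1 fell, with a median difference of 0.07. Of those with Mrps symbols 7 of 28 (25.0%) rose and 0 fell, with a median of 0.13. Genes listed with a bacterial homologue rose in 8 of 45 cases (17.8%), and those listed as specific to mitochondria in 7 of 31 (22.6%). The latter count includes Mrps18b of the S18 family, so these shares depend on how the list places that family. The 60 genes that were not called ranged from -0.45 (Mrpl14) to 0.46 (Mrpl32). Mrpl41, whose protein is known to bind BCL2, was among them, with a difference of 0.28 (SE 0.14, limma adjusted p = 0.237).

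**Figure D1:**
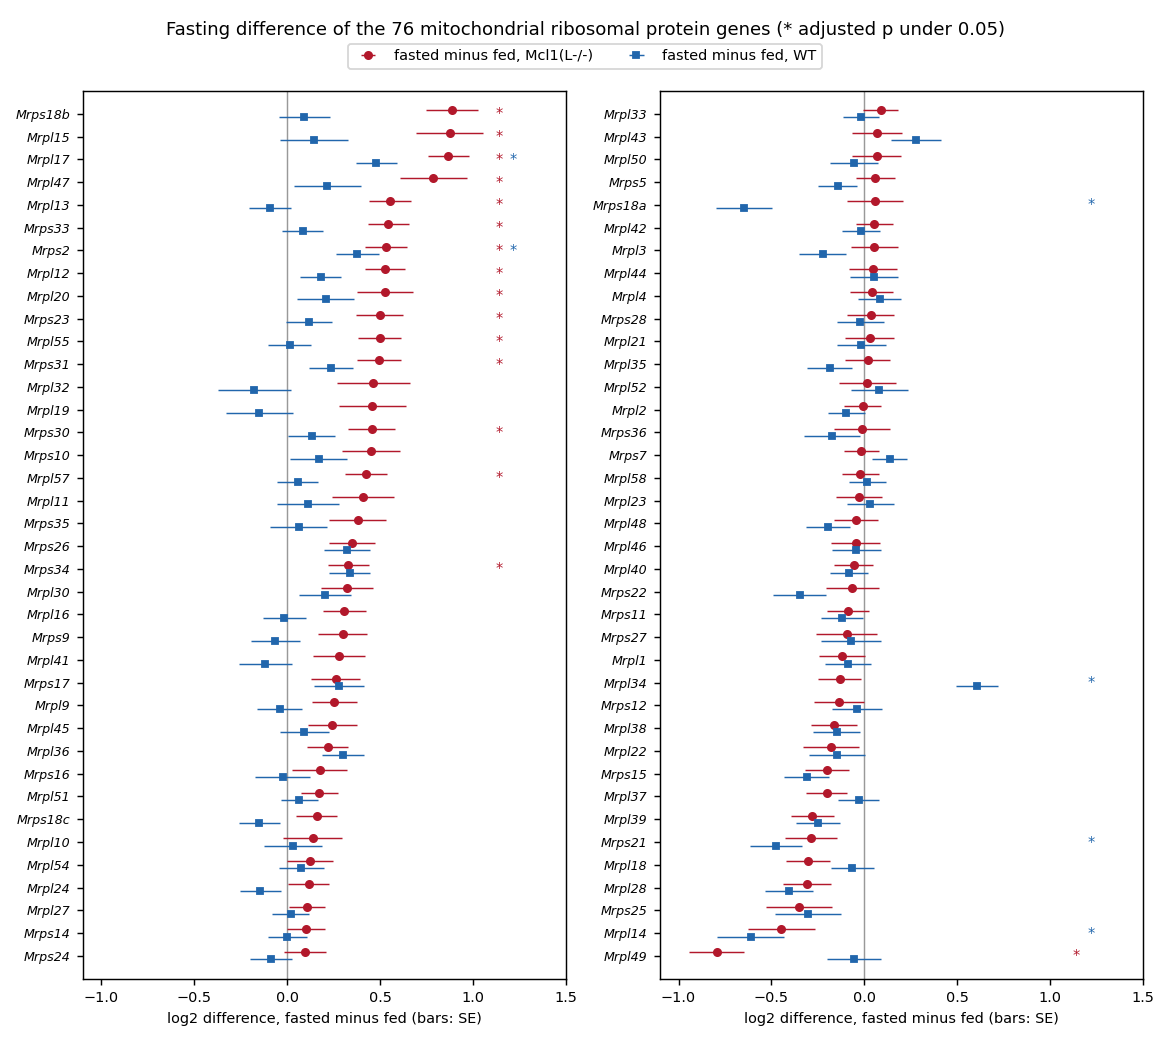
Difference in log2 signal between fasted and fed livers for each of the 76 genes, in Mcl1(L-/-) mice (red circles) and WT mice (blue squares), ordered by the difference in Mcl1(L-/-) mice from the top left to the bottom right. Bars are the SE from limma (n = 5 mice per group) and asterisks of the same colour mark an adjusted p under 0.05. Mrps18b, Mrpl15, Mrpl17 and Mrpl47 head the list, Mrpl49 ends it, and Mrpl34 and Mrps18a have WT differences of 0.61 and -0.65.

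The same comparison in WT livers gave few called genes. Fasting raised 3 of the 76 genes (3.95%), Mrpl34 (1.52-fold), Mrpl17 (1.40-fold) and Mrps2 (1.30-fold), compared with 3.10% of all probe sets. It lowered 3 (3.95%), Mrps18a (1.56-fold), Mrpl14 (1.53-fold) and Mrps21 (1.39-fold), compared with 3.68% of all probe sets. Both shares lay near those of all probe sets. All 76 genes belong to the brighter probe sets, whose shares were not computed for this comparison. The median difference was -0.02, with 35 of 76 above 0, and the median over all probe sets was 0.01.

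Mrpl34, the counterpart of bacterial L34, rose in WT livers. Its signals were 5.72, 5.54, 5.53, 5.76 and 5.64 in fasted WT livers, against 5.10, 4.99, 4.90, 5.03 and 5.15 in fed WT livers. The groups did not overlap (difference 0.61, SE 0.11, limma adjusted p = 0.00117). In Mcl1(L-/-) livers it had 4.88, 4.71, 5.22, 5.31 and 4.93 in the fasted group, against 5.16, 4.87, 5.13, 5.20 and 5.35 in the fed group, which overlap (difference -0.13).

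Mrps18a, another gene of the S18 family, was lower in fasted WT livers. Its signals were 4.61, 4.21, 4.19, 3.93 and 4.10 in fasted WT livers, against 5.02, 4.36, 4.70, 5.35 and 4.84 in fed WT livers. Fasted replicate 1 lay within the fed range and the other 4 below it (difference -0.65, SE 0.15, limma adjusted p = 0.00801). In Mcl1(L-/-) livers the fasted arrays had 4.89, 4.68, 4.73, 4.59 and 4.82, against 4.53, 4.77, 4.49, 4.67 and 4.97 in the fed ones (difference 0.06).

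Mrpl14, a large-subunit protein at the face between the subunits, had 5.78, 5.43, 5.17, 4.92 and 5.53 in fasted WT livers, against 5.99, 5.91, 6.21, 6.04 and 5.75 in fed WT livers. The groups overlapped through fasted replicate 1 (difference -0.61, SE 0.18, limma adjusted p = 0.0415). In Mcl1(L-/-) livers it had 5.35, 5.53, 5.71, 5.79 and 4.83 in the fasted group, against 5.67, 5.76, 6.27, 6.21 and 5.52 in the fed group, with a difference of -0.45 that was not called (adjusted p = 0.115).

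Mrps21, the counterpart of bacterial S21, had 7.35, 7.11, 6.70, 7.0 and 7.23 in fasted WT livers, against 7.76, 7.59, 7.46, 7.65 and 7.33 in fed WT livers. Only fasted replicate 1 reached the lowest fed array (difference -0.48, SE 0.14, limma adjusted p = 0.0360). In Mcl1(L-/-) livers it had 6.85, 6.77, 7.19, 7.52 and 6.95 in the fasted group, against 7.26, 7.36, 7.53, 7.21 and 7.36 in the fed group, a difference of -0.29 (adjusted p = 0.202).

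These WT calls were unequally firm. Those of Mrpl34, Mrpl17 and Mrps18a held under every alternative run. Mrps2 lost its call when any of 14 of the 20 arrays was left out, with adjusted p-values up to 0.142, the 6 exceptions being Fasted Mcl1(L-/-) replicates 2, 3 and 5, Fed Mcl1(L-/-) replicates 1 and 2 and Fed WT replicate 3. It also lost it with trended and robust moderation, with arrays centred on their medians and with the replicate number as a block. Centring ended the call of Mrpl14 as well, and the block that of Mrps21. Mrpl14 and Mrps21 each lost theirs without Fasted WT replicate 2, 3 or 4 or Fed WT replicate 1, 2, 3 or 4 (highest adjusted p = 0.129 and 0.127). The count of 6 called genes became 3 without Fasted WT replicate 2 or without Fed WT replicate 1, 2 or 4.

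**Figure D2:**
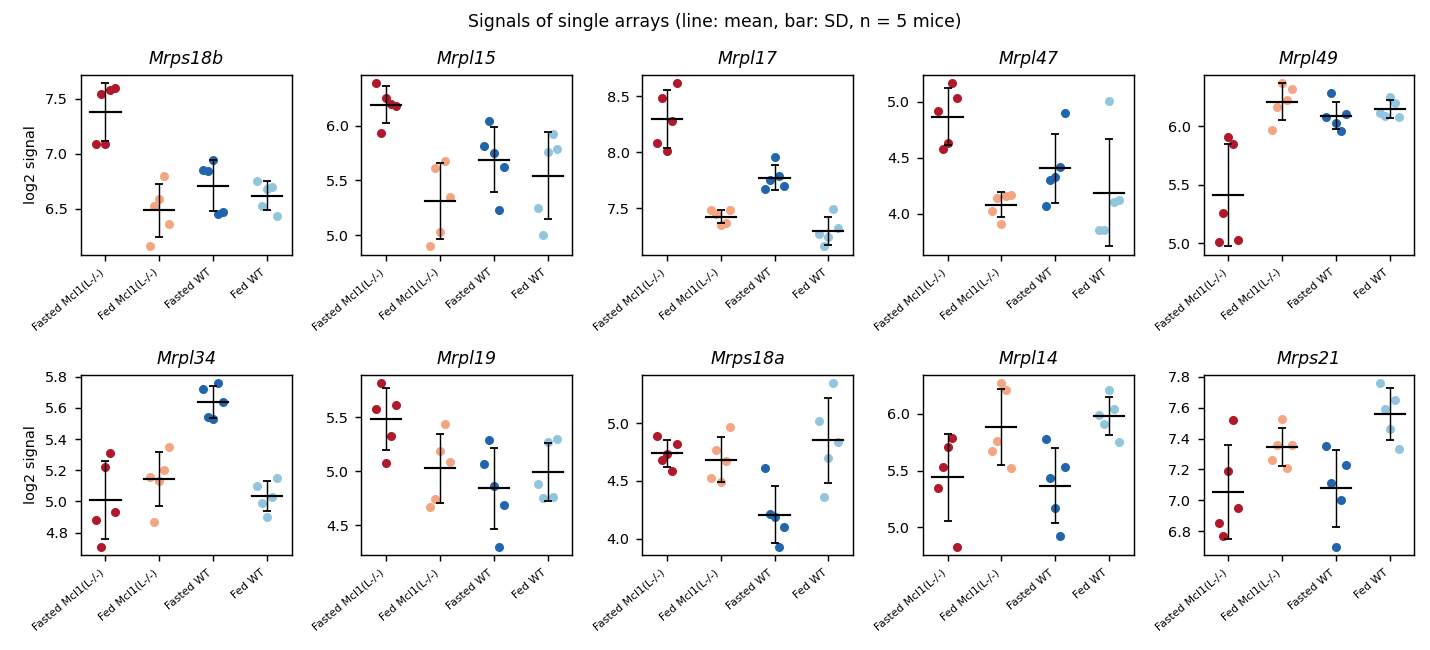
Log2 signal of 10 genes on each array, by group (fasted Mcl1(L-/-), fed Mcl1(L-/-), fasted WT, fed WT). Points are mice, black lines the group means and bars the SD (n = 5). Mrps18b, Mrpl15, Mrpl17 and Mrpl47 are highest in fasted Mcl1(L-/-) livers and Mrpl49 is lowest there, while Mrpl34 is highest and Mrps18a lowest in fasted WT livers.

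Between genotypes in fed livers, none of the 76 genes was called by limma. The differences ranged from -0.27 (Mrpl55) to 0.30 (Mrps28) on the log2 scale, with a median of -0.02, beside -0.002 over all probe sets. At an unadjusted p under 0.05 there were 3 of the 76 genes, beside 1429 of the 22206 probe sets. The lowest limma adjusted p was 0.669 (Mrps7, difference 0.23). Mrps36, whose protein is now known as a subunit of the oxoglutarate dehydrogenase complex, had a difference of -0.23. Over all probe sets 8 of 22206 were called (0.0360%). The median SE of the pairwise differences was 0.125.

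Between genotypes in fasted livers, 8 of the 76 genes were higher in Mcl1(L-/-) and 2 were lower. The higher ones were Mrps18b (1.59-fold), Mrpl19 (1.56-fold), Mrpl13 (1.49-fold), Mrps18a (1.45-fold), Mrpl17 (1.43-fold), Mrps30 (1.37-fold), Mrps33 (1.34-fold) and Mrpl12 (1.32-fold). The lower ones were Mrpl49 (1.60-fold) and Mrpl34 (1.55-fold). The higher genes were 10.5% of the 76, compared with 3.32% of all probe sets and 6.30% of the brighter probe sets. The lower ones were 2.63%, compared with 1.67% and 3.03%. The median difference was 0.14, with 56 of 76 (73.7%) above 0, and over all probe sets it was -0.02, with 46.3% above 0. Of the 8 higher genes, 6 were also among the 15 that rose with fasting in Mcl1(L-/-) livers, a comparison that shares the fasted Mcl1(L-/-) arrays.

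For Mrps18b the fasted Mcl1(L-/-) arrays (7.09 to 7.60) all lay above the fasted WT ones (6.45 to 6.94), with a difference of 0.67 (SE 0.14, limma adjusted p = 0.00668). Mrpl13, a core protein of the large subunit, had 6.46, 6.50, 6.13, 6.49 and 6.37 in fasted Mcl1(L-/-) livers, against 5.79, 6.05, 5.49, 5.76 and 5.98 in fasted WT livers. These groups did not overlap (difference 0.58, SE 0.11, limma adjusted p = 0.00532), while the fed groups had 5.74, 5.95, 5.67, 6.11 and 5.73 in Mcl1(L-/-) livers and 5.81, 5.89, 5.91, 6.04 and 5.90 in WT livers, which overlap. Mrpl49 (difference -0.68, SE 0.15, limma adjusted p = 0.00959) and Mrpl34 (difference -0.63, SE 0.11, limma adjusted p = 0.00322) were lower on every fasted Mcl1(L-/-) array than on any fasted WT array.

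Mrpl19, the counterpart of bacterial L19, had 5.58, 5.82, 5.08, 5.33 and 5.62 in fasted Mcl1(L-/-) livers, against 5.07, 5.29, 4.86, 4.30 and 4.69 in fasted WT livers. The groups overlapped (difference 0.64, SE 0.18, limma adjusted p = 0.0411), and fed livers had 4.67, 4.74, 5.19, 5.44 and 5.09 in Mcl1(L-/-) mice and 4.88, 4.75, 5.27, 4.76 and 5.30 in WT mice. Mrps18a was higher on 4 of 5 fasted Mcl1(L-/-) arrays than on any fasted WT array and on all 5 higher than 4 of the 5 fasted WT arrays (difference 0.53, adjusted p = 0.0395). It is the gene whose WT level was lower after fasting, and in fasted Mcl1(L-/-) livers its mean of 4.74 (SD 0.12) lay between the means of 4.68 (SD 0.19) in fed Mcl1(L-/-) livers and 4.85 (SD 0.37) in fed WT livers.

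The calls of Mrps18b, Mrpl13 and Mrpl34 in fasted livers held under every alternative. Those of Mrpl17 and Mrpl49 were lost only in a fit of the compared groups alone (adjusted p = 0.0594 and 0.0670). The count of 10 became 5 without Fasted Mcl1(L-/-) replicate 2, 6 without replicate 5 of that group, 6 without Fasted WT replicate 4 and 5 without Fasted WT replicate 5. Mrpl19 was not called without Fasted Mcl1(L-/-) replicate 1, 2 or 5 or Fasted WT replicate 3, 4 or 5, and Mrps18a without these or Fasted WT replicate 2. Mrpl12 and Mrps30 lost their calls without Fasted Mcl1(L-/-) replicate 1, 2, 4 or 5 or Fasted WT replicate 1, 4 or 5, and Mrps30 also without Fasted WT replicate 3. Mrps33 lost its call without Fasted Mcl1(L-/-) replicate 2 or 4 or Fasted WT replicate 1, 2 or 5. All 5 of these genes also lost their calls in a fit of the compared groups alone, all but Mrps33 with the replicate block, Mrpl19, Mrps18a and Mrps30 with array weights, Mrpl19, Mrps30 and Mrpl12 after quantile normalisation, and Mrps30 with trended and robust moderation. Over all alternatives the highest adjusted p was 0.124 for Mrpl19, 0.110 for Mrps18a, 0.109 for Mrpl12, 0.134 for Mrps30 and 0.0929 for Mrps33.

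Whether fasting acted differently in the genotypes was tested by the interaction, the fasting difference in Mcl1(L-/-) minus that in WT livers. Of the 76 genes 0 were called by limma, compared with 0.135% of all probe sets. At an unadjusted p under 0.05 there were 15 of the 76 genes, beside 2477 of the 22206 probe sets. The largest interactions were those of Mrps18b (0.80, SE 0.20, limma adjusted p = 0.0849) and Mrpl15 (0.73, SE 0.26, adjusted p = 0.246), and in the other direction Mrpl34 (-0.74, SE 0.16, adjusted p = 0.0632) and Mrpl49 (-0.74, SE 0.21, adjusted p = 0.137). The median was 0.12, with 54 of 76 (71.1%) above 0, and over all probe sets it was -0.01. Genes called in a single genotype are therefore not shown to respond differently between genotypes. Leaving out Fasted Mcl1(L-/-) replicate 3 gave 4 called genes, among them Mrps18b (0.87, adjusted p = 0.0255), Mrpl34 (-0.79, adjusted p = 0.0155) and Mrpl49 (-0.86, adjusted p = 0.0240). Leaving out Fasted Mcl1(L-/-) replicate 4 or Fed Mcl1(L-/-) replicate 2 gave 1, Mrpl34 (adjusted p = 0.0291 and 0.0422).

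Arrays of a group differed in the shared level of these genes. Each gene's signal was set against its mean over the 20 arrays, and the median over the 76 genes was taken per array. These medians ran from 0.03 to 0.25 in fasted Mcl1(L-/-) livers, from -0.09 to 0.07 in fed Mcl1(L-/-) livers, from -0.18 to 0.03 in fasted WT livers and from -0.09 to 0.03 in fed WT livers. Fasted Mcl1(L-/-) replicate 4 was the highest of the 20 and fasted WT replicate 4 the lowest. The same 2 arrays had the lowest and the highest median over all probe sets (3.35 and 3.47). With each array centred on its median, the fasting difference in Mcl1(L-/-) livers had a median of 0.12 over the 76 genes and called 18 of them. The part of array scaling in the shared level was not tested further.

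**Figure D3:**
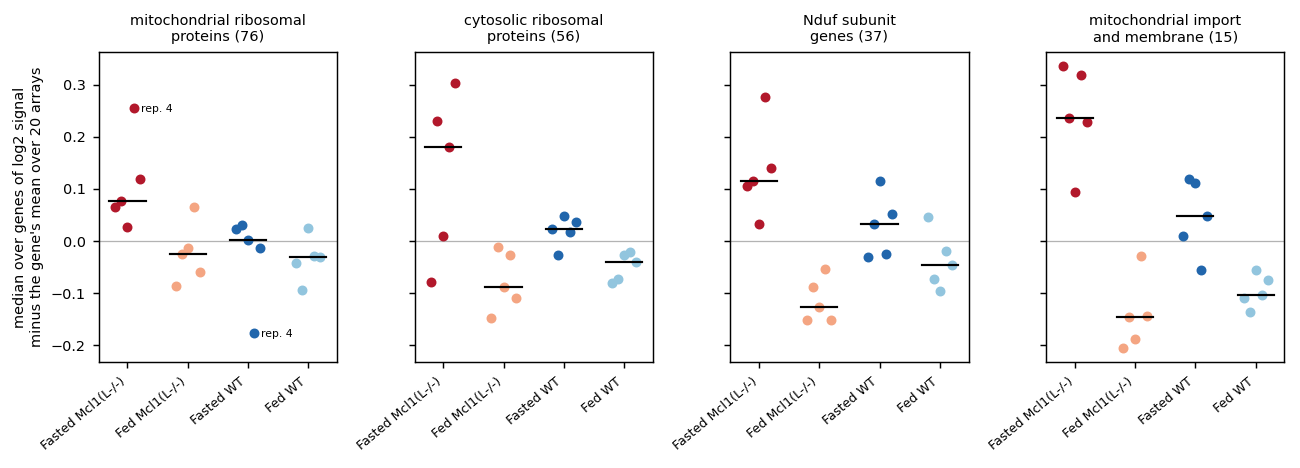
Median over the genes of a list of the log2 signal minus each gene's mean over all 20 arrays, 1 point per array, for the mitochondrial ribosomal proteins, cytosolic ribosomal proteins, Nduf subunit genes of respiratory complex I and mitochondrial import and membrane genes. Black lines are medians of the 5 arrays of a group. For the mitochondrial ribosomal proteins fasted Mcl1(L-/-) replicate 4 (0.25) and fasted WT replicate 4 (-0.18) stand at the ends.

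Genes that build and serve the mitochondrial ribosome were set beside its proteins. Of 4 measured ribosomal subunits with symbols outside the Mrpl and Mrps series, 0 were called by limma in fasted Mcl1(L-/-) against fed Mcl1(L-/-) livers. Dap3 had a difference of 0.22 (SE 0.11, adjusted p = 0.235) and Ptcd3 one of 0.33 (SE 0.16, adjusted p = 0.214). Of 26 assembly and ribosomal RNA modification genes, 3 rose (11.5%) and 1 fell (3.85%, Nsun4, a ribosomal RNA methyltransferase, -0.43), shares that lay below those of the brighter probe sets (15.4% and 11.2%). Those that rose were Ddx28, a DEAD-box helicase of large-subunit assembly (1.42), Fastkd2, an RNA-binding protein of ribosome assembly (0.65), and Gtpbp10, a GTPase of large-subunit assembly (0.34). Of the 26 genes, 2 rose in fasted WT livers (7.69%, compared with 3.10% of all probe sets), the ribosomal RNA methyltransferase gene Tfb1m (0.83) and Rcc1l (0.52).

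Ddx28 had signals of 5.75, 6.10, 5.11, 5.47 and 6.18 in fasted Mcl1(L-/-) livers, against 4.36, 4.39, 3.95, 4.34 and 4.49 in fed Mcl1(L-/-) livers. In fasted WT livers they were 4.70, 4.90, 4.48, 4.94 and 4.88, against 4.59, 4.46, 4.39, 4.44 and 4.39 in fed WT livers. Every fasted Mcl1(L-/-) array lay above the arrays of all other groups, replicate 3 least so. Its interaction was 1.09 (SE 0.22, limma adjusted p = 0.0468), and in the same fit none of the 76 ribosomal protein genes was called.

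Of 15 translation factors, 4 rose in fasted Mcl1(L-/-) livers (26.7%), the release factors Mtrf1l (0.65) and Mtrf1 (0.52), the insertase Oxa1l (0.49) and the elongation factor Gfm1 (0.42), and the elongation factor gene Tsfm fell (-0.32). Oxa1l (0.47) and Gfm1 (0.56) also rose in fasted WT livers. Of 11 genes of mitochondrial DNA transcription and upkeep 2 rose (18.2%), the mitochondrial transcription factor gene Tfb2m (0.76) and Mterf2 (0.40). Of 9 regulators of nuclear genes for mitochondrial proteins 4 rose (44.4%). Among them were the coactivator Ppargc1a (1.64), Gabpb1 (0.93), which encodes a partner of the ETS factor GABPA, and Nrf1 (0.65). In the same comparison 8.20% of all probe sets and 15.4% of the brighter ones rose. Gabpa itself had a difference of 0.22 in fasted against fed Mcl1(L-/-) livers (SE 0.10, limma adjusted p = 0.201). Ppargc1a also rose in fasted WT livers (1.80). Of the 9 regulators 2 (22.2%, compared with 3.32% of all probe sets) were higher in fasted Mcl1(L-/-) than in fasted WT livers. These were Myc (1.97, limma adjusted p = 0.0276) and Nrf1 (0.71, limma adjusted p = 0.0287). No link between these regulators and the ribosomal protein genes was tested.

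Other mitochondrial and ribosomal lists gave these counts for fasting in Mcl1(L-/-) livers. Of 15 import and membrane genes 9 rose (60.0%), led by Tomm20 (1.03), Tomm40 (0.72) and Timm23 (0.70), and the list's median was 0.45. Of 37 Nduf genes, most of which encode subunits of respiratory complex I, 16 rose (43.2%), with a median of 0.24. Of 56 cytosolic ribosomal protein genes 9 rose (16.1%), with a median of 0.22 and 52 of 56 above 0. The mitochondrial ribosomal proteins had a lower median (0.09) than each of these lists, and a share that rose (19.7%) between those of cytosolic ribosomal proteins and Nduf genes. In fasted livers 2 of 15 import and membrane genes (13.3%) were called higher by limma in Mcl1(L-/-) than in WT, with a median of 0.22 and 14 of 15 above 0. The mitochondrial ribosomal proteins (10.5%, median 0.14) lay below this list in both measures. Of the Nduf genes 1 and of the cytosolic ribosomal protein genes 0 were called higher, with medians of 0.09 and 0.12. The share called higher over all probe sets was 3.32%, and 6.30% over the brighter ones. The lists were not tested against each other.

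**Figure D4:**
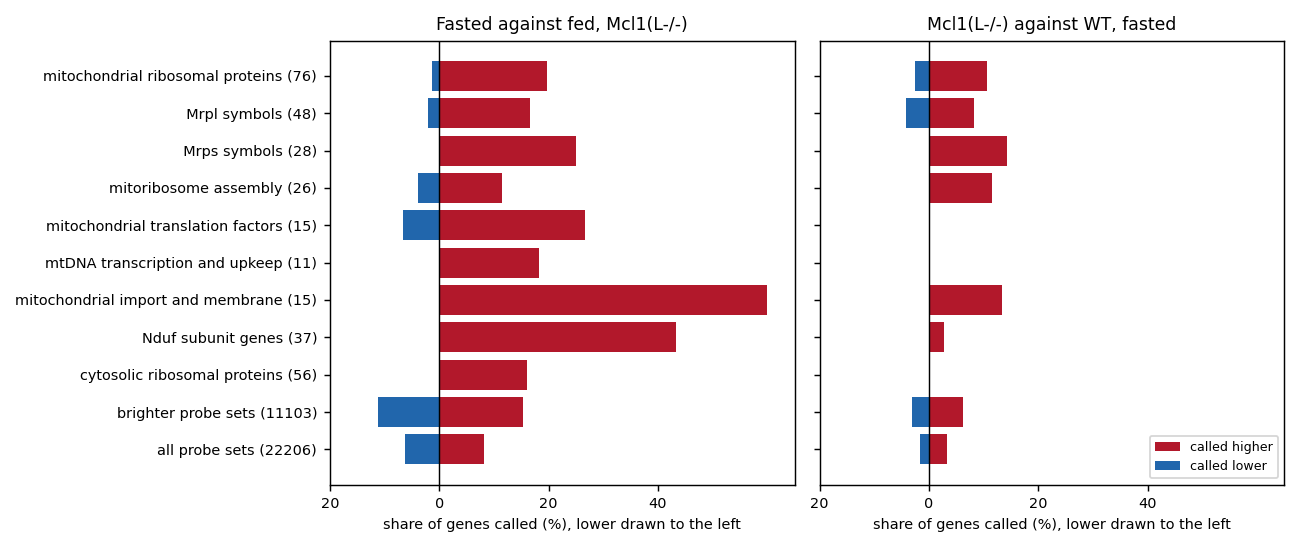
Share of genes called by limma at an adjusted p under 0.05, higher (red, to the right of 0) or lower (blue, to the left), for fasted against fed Mcl1(L-/-) livers and for Mcl1(L-/-) against WT in fasted livers, with the number of genes in brackets. The mitochondrial ribosomal proteins (19.7% higher, 1.32% lower in the first comparison) lie near the brighter probe sets on the higher side (15.4%) and below them on the lower side (11.2%).

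Markers of other liver cells moved between the groups too. Of 9 Kupffer cell markers 3 were lower in fasted WT than in fed WT livers and 3 were higher in fasted Mcl1(L-/-) than in fasted WT livers, among them Vsig4 (1.22) and Clec4f (0.56). Each count was 33.3% of the list, compared with 3.68% and 3.32% of all probe sets. The mean signal of these markers per array was 5.22 to 6.01 in fasted Mcl1(L-/-), 5.54 to 5.96 in fed Mcl1(L-/-), 4.85 to 5.11 in fasted WT and 5.41 to 5.87 in fed WT livers. That of 8 hepatocyte markers was 11.61 to 11.67, 11.44 to 11.53, 11.64 to 11.70 and 11.43 to 11.51 in the same order of groups. Of these 8, 3 rose with fasting in Mcl1(L-/-) livers (Tat, 0.65, Cps1, 0.54, and Hnf4a, 0.48) and 1 fell (Ttr, -0.32). In WT livers 2 rose (Tat, 0.69, and Cps1, 0.47) and 0 fell. The list's median fasting difference was 0.08 in Mcl1(L-/-) and 0.09 in WT livers. In fasted against fed Mcl1(L-/-) livers 1 of 9 Kupffer cell markers fell (Cd5l, -1.20), 1 of 6 sinusoidal endothelial markers rose (Lyve1, 2.24), 1 of 6 stellate cell markers rose and 2 fell (among them Col3a1, -1.70), and 1 of 3 neutrophil markers rose. Over all probe sets 8.20% rose and 6.25% fell in this comparison. The mean signal of 5 lymphocyte markers per array was 2.48 to 2.64 in fasted Mcl1(L-/-), 2.48 to 2.83 in fed Mcl1(L-/-), 2.57 to 2.72 in fasted WT and 2.56 to 2.64 in fed WT livers. The part of these shifts in the differences of the ribosomal protein genes was not tested.

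Some of these genes share their position with others. By RefSeq, 17 of the 76 genes overlap another measured gene, and 16 of 67 with a recorded strand have a divergent partner whose start lies within 1000 bases. Of the 16 partners 3 were called for fasting in Mcl1(L-/-) livers, and they were picked out after their values were seen. In this comparison 8.20% of all probe sets rose and 6.25% fell, and of the brighter probe sets 15.4% rose and 11.2% fell. Fau, a ribosomal protein gene that starts 192 bases from Mrpl49, rose, with 8.79, 9.08, 8.66, 8.79 and 9.06 in fasted Mcl1(L-/-) livers, against 8.08, 8.34, 8.31, 8.36 and 8.36 in fed Mcl1(L-/-) livers (difference 0.59, SE 0.10, limma adjusted p = 0.000219). Mrpl49 fell on the same arrays, so this divergent pair went opposite ways. Fau also rose in fasted WT livers (0.49, limma adjusted p = 0.00292), where Mrpl49 had a difference of -0.05. Mitd1, divergent to Mrpl30, fell (-1.07, adjusted p = 0.00318), while Mrpl30 had a difference of 0.32 that was not called. Psma2, a proteasome subunit gene divergent to Mrpl32, rose (0.59, adjusted p = 0.0228), beside 0.46 for Mrpl32, not called.

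Mrpl49 also overlaps Syvn1, a ubiquitin ligase gene, which had a difference of -0.20 (adjusted p = 0.339) in Mcl1(L-/-) livers and rose with fasting in WT livers (0.45, adjusted p = 0.0215). Mrpl14 overlaps Tmem63b, which fell in fasted Mcl1(L-/-) livers (-0.36, adjusted p = 0.0149). Mrpl18 overlaps Tcp1, which rose there (0.62, limma adjusted p = 0.000171), while Mrpl18 had a difference of -0.30 (limma adjusted p = 0.0919). Among the partners that overlap the 17 genes, only Tmem63b and Tcp1 were called for fasting in Mcl1(L-/-) livers, and both are named for that. Which probes read which of 2 overlapping genes is not stated in the annotation used, which makes these values less certain. On chromosome 17, Mrpl14 and Mrps18a, both lower in fasted WT livers, are numbers 672 and 675 in the order of measured genes. Mrpl2 and Mrps10, numbers 696 and 713, were not called there, with differences of -0.10 and 0.17.

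Of the 5 genes on chromosome 3, which carries Mcl1, Mrps21 lies 5 and Mrpl9 39 measured genes from Mcl1. Mrpl9, the counterpart of bacterial L9, had 6.29, 6.18, 5.81, 5.99 and 6.37 in fasted Mcl1(L-/-) livers, against 5.81, 5.73, 5.81, 5.97 and 6.04 in fed Mcl1(L-/-) livers. In fasted WT livers it had 5.97, 6.18, 5.86, 5.89 and 6.31, against 5.97, 5.91, 6.07, 6.13 and 6.32 in fed WT livers. All groups overlapped, and neither gene was called between genotypes, with Mrps21 at -0.21 (SE 0.14) and Mrpl9 at -0.21 (SE 0.12) in fed livers and at -0.02 and 0.09 in fasted livers.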

How the data were processed

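Liver RNA of 20 mice was measured on 1 array each. The submitters' processing notes name RMA (background correction, quantile normalisation and summary of probes) and Partek 7.0 for the log2 signals that the authors deposited. The log base is read from the range (1.34 to 12.56), since the table states none. Quantile normalisation evens out the arrays, so a change common to most mRNAs is largely hidden. The deposited values still differed somewhat between arrays, with medians of 3.35 to 3.47.

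All 22206 probe sets were fitted with limma 3.58.1 in R 4.3.3, with 1 mean for each of 4 groups, a shared spread moderated by eBayes (prior df 6.95) and no filter. Fasted was set against fed in each genotype and Mcl1(L-/-) against WT in fed and in fasted livers, and the interaction is the difference of the fasting effects. P-values were adjusted by Benjamini-Hochberg over all probe sets and a gene was called at an adjusted p under 0.05. P-values measure the spread between these mice, and precision is limited by the number of arrays. A fold given as lower is the higher group over the lower one. Alternatives were other moderation, array weights, scaling, a filter on dim probe sets, a fit of the compared groups, the replicate number as a block, the mean of probe sets, and arrays left out.

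The ribosomal protein genes and all lists were chosen with earlier results of these data known. Named were up to 12 called genes with the largest rise and up to 6 with the largest fall in each contrast (otherwise the 2 with the largest difference each way), genes near Mcl1, and up to 3 called genes per list and direction. Further genes are given as values. Same-numbered replicates were checked for pairing: the correlation of their deviations ran from -0.190 to 0.166 over 30 pairs, and was over 0.1 in 1. The mice were therefore treated as unpaired. Differently numbered replicates were not correlated for reference, so this check cannot exclude a weak pairing. Promoters and gene neighbours come from RefSeq (GRCm38.p6). Python 3.11.15 with matplotlib 3.10.9 drew the figures.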

Additional observations from a re-analysis of the deposited data

Results flagged for a closer look

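In 5 of 88 groups of 5 arrays of the named genes, 1 array stood far from the others by Dixon's criterion, about the share that chance gives, 1 in 20. In fed Mcl1(L-/-) livers, replicate 4 had 6.87 for Mrpl20 (others 6.44 to 6.51) and 5.49 for Mrps36 (others 5.09 to 5.20), and replicate 1 had 5.91 for Mrps28 (others 6.09 to 6.17). In fasted Mcl1(L-/-) livers, replicate 1 had 7.65 for Mrps31 (others 6.99 to 7.17). In fed WT livers, replicate 3 had 5.01 for Mrpl47 (others 3.85 to 4.12). No call of Mrps31 or Mrpl47 was lost when any single array was left out.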

How the results depend on the processing

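No result reversed. The median differences kept their sign except where they lay near 0 (fasting in WT, -0.05 to 0.003, and the genotypes in fed livers, -0.03 to 0.01, over all alternatives). Of 29 calls of named genes, 18 held under all alternatives. The 29 leave out the rises of Mrpl57, Mrps30 and Mrps34 with fasting in Mcl1(L-/-) livers. Fasting in Mcl1(L-/-) livers called 16 genes, 14 to 19 with arrays left out and 15 to 21 under the other alternatives, the 21 being without fasted Mcl1(L-/-) replicates 3 and 4. Fasting in WT livers called 6, 3 to 7 with arrays left out. The fed comparison called 0 throughout. The fasted comparison of genotypes called 10, 5 to 14 with arrays left out, 3 in a fit of the compared groups alone (fewer arrays estimate the spread) and 6 with the replicate block. The interaction called 0, 0 to 4 with arrays left out, 1 with array weights, 1 after quantile normalisation, 1 over the brighter probe sets and 4 without fasted Mcl1(L-/-) replicates 3 and 4. The cause of these shifts was not tested. No pair of arrays other than fasted Mcl1(L-/-) replicates 3 and 4 was left out together.

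The limits are these. Whole liver was measured, probe sets compress folds of dim genes, and the interaction is the least precise contrast (median SE 0.177, against 0.125 for the pairwise ones). The shared spread understates that of genes that vary more in fasted Mcl1(L-/-) livers, such as Mrpl49. Changes in mRNA say nothing of the amount or activity of mitochondrial ribosomes, which were not measured.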
